A study of Homo sapiens with 4 samples.

Results

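NF-kB is a family of dimeric transcription factors that inhibitor proteins hold in the cytoplasm. Receptors such as those for TNF and interleukin 1 activate a kinase complex that marks the inhibitors for destruction, and the freed dimers switch on chemokines, survival genes and their own inhibitors. In the liver, NF-kB acts together with interleukin 6 and STAT3 in the acute phase response, in which hepatocytes secrete more of some plasma proteins (positive acute phase proteins) and less of others (negative acute phase proteins). The 40 genes described here were given as a list of NF-kB subunits and inhibitors, NF-kB targets, interleukin 6 signalling genes and acute phase proteins, and all 40 were found by symbol among the 62655 gene IDs of the count table.

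The cells were Hep G2, an established human hepatocellular line that is widely used as a hepatocyte model. The cells of all 4 samples were plated at 150000 cells per ml, put into medium rich in oleic acid after 24 h to load them with lipid, transfected 24 h later and harvested after another 24 h. The first group, of 2 libraries, received an oligonucleotide mimic of LysTTT-5'tRF, which is the 5' piece of a tRNA for lysine whose anticodon reads TTT. The other group, also of 2 libraries, received a negative control oligonucleotide. Oleic acid and transfection were therefore common to both groups, and the comparison asked which transcripts differed with the fragment in lipid-loaded cells. Nothing in the labels says whether the replicates were separate cultures, so the p-values rest on a spread between libraries that may be technical only.

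Reads counted to genes numbered from 15430539 to 18961222 per library. Control library 2 had 10.4% of its reads in the entry for reads aligned to several places, against 8.30% to 8.47% in the other 3. It also lay at one end of the first principal component of all genes (26.0), with mimic library 1 at the other end (-23.0) and mimic library 2 (-4.62) and control library 1 (1.53) between them. All 9 markers of hepatocytes and Hep G2 cells were detected, with sums from 48555 to 48935 CPM (counts per 1000000 reads, with library sizes scaled by TMM) with the mimic and from 45853 to 47679 CPM in control cells. Of 9 leukocyte and Kupffer cell markers, 5 were at 0 in every library, among them PTPRC, CD163 and MARCO. The rest of that list summed to 1530 and 1620 CPM in mimic cells and 1474 and 1478 CPM in control cells, nearly all of it from the lysozyme gene LYZ (1575 CPM in mimic cells and 1476 CPM in control cells). The markers of stellate cells and fibroblasts summed to at most 35.5 CPM and those of endothelium to at most 13.4 CPM in any library. The 5 cholangiocyte markers summed to 931 and 962 CPM in mimic cells and 951 and 1035 CPM in control cells, with KRT7 at 0 and most of the sum from SOX9 and KRT19. In such bulk libraries fewer cells making a transcript and less transcript per cell cannot be told apart.

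NFKBIA, the gene of the inhibitor IkB-alpha, was the 1 member that passed the main test over all genes, and it was higher with the mimic. Its promoter and that of the chemokine gene CCL20, the member with the next smallest p, are shown first because both hold a match to the kappa-B consensus, the sequence pattern bound by NF-kB dimers. Both sequences are RefSeq windows of GRCh38.p14, from 250 bases before to 50 bases after the annotated start, written 5′ to 3′ on the strand of the gene. Capitals mark the consensus match, which in both lies on the opposite strand. The NFKBIA window is chr14:35404700-35404999 on the minus strand, with the match from 81 to 72 bases before the start. The CCL20 window is chr2:227813592-227813891 on the plus strand, with the match from 79 to 70 bases before the start.
NFKBIA: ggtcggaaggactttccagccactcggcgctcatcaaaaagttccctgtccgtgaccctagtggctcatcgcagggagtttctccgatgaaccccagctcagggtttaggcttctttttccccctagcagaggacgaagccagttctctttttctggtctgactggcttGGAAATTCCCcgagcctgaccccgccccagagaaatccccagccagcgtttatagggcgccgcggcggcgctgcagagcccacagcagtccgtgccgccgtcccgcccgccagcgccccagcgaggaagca
CCL20: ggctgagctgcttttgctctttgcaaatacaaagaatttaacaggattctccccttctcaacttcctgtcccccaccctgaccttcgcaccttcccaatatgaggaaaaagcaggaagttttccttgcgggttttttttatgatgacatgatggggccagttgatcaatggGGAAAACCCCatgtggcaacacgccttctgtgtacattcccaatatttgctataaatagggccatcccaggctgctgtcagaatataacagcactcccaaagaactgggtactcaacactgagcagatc

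The 3 chemokine genes CXCL1, CXCL2 and CXCL5, from a cluster on chromosome 4, are set beside these because their windows hold a match although their transcripts were at or near 0 in these cells. Each stretch of 30 bases carries the match in capitals on the gene's strand. They lie at chr4:73869304-73869333 on the plus strand for CXCL1, chr4:74099254-74099283 on the minus strand for CXCL2 and chr4:73998749-73998778 on the minus strand for CXCL5. The windows of NFKB1 (chr4:102501300-102501329, plus strand) and NFKBIB (chr19:38899931-38899960, plus strand) hold the same 10 letters. The NFKBIA match shown above gives these letters when read on the opposite strand, and so does a match in the REL window.
CXCL1: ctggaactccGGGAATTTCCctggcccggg
CXCL2: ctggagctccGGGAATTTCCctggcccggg
CXCL5: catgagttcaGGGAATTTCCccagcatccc
NFKB1: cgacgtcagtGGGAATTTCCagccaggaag
NFKBIB: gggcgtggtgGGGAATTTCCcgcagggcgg

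The kappa-B consensus, searched on both strands with matches that overlap on opposite strands kept in the same window, was found in 14 of the 44 windows of the 30 members that have one, and in 5.91% of all 35114 windows. The spelled form GGGNNTTTCC was found in 13 of the 44 windows and in 1.91% of all windows, and overlapped the consensus in part. The looser GGGNNNNNCC was present in 58.7% of all windows and in 40 of the 44. Many members were listed as NF-kB targets, so a high share of matches is no independent finding, and a match is a description of letters, not a bound site. Of the 13 members with a consensus match, 9 were abundant enough to test. Among these NFKBIA rose and 8 did not pass. An unadjusted p under 0.05 in the edgeR test was found for NFKBIA and CCL20, and the median log2 fold change of the 9 was 0.10. CXCL1, CXCL2, CXCL5 and LCN2 also hold a match and were too low to test. Of the 17 members whose windows lack one, 14 were tested and 0 passed edgeR's quasi-likelihood test. An unadjusted p under 0.05 was found for 1 of them (AHSG), and their median was 0.00. Over all genes tested 0.346% were called, 9.43% had an unadjusted p under 0.05 and the median was 0.00. TTR has no window and is in neither set. Whether a match goes with a change was not tested.

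Of the 40 members, 29 passed the filter on low counts and were tested. In edgeR's quasi-likelihood F test, adjusted by Benjamini-Hochberg over all 14464 genes, 1 of the 29 rose, 0 fell and 28 did not pass, where 0.346% of all genes tested were called (0.277% higher with the mimic and 0.0691% lower). DESeq2, which gave an adjusted p to 17 members, and limma voom, which gave one to all 29, each called NFKBIA and no other member. At an unadjusted p under 0.05 there were 4 members, NFKBIA, CCL20 and TTR higher and AHSG lower, where the share of all tested genes was 9.43% (5.06% higher and 4.37% lower). Mimic and control values did not overlap in 11 of the 29, 7 higher and 4 lower with the mimic, against 39.1% of all genes tested (19.8% higher and 19.3% lower), so these counts are close to the background. The median log2 fold change of the 29 was 0.01, against 0.00 for all genes tested. The smallest two-sided p that an exact permutation test could give for 1 gene with 2 libraries against 2 is 0.333, so no such test is printed.

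**Figure D1:**
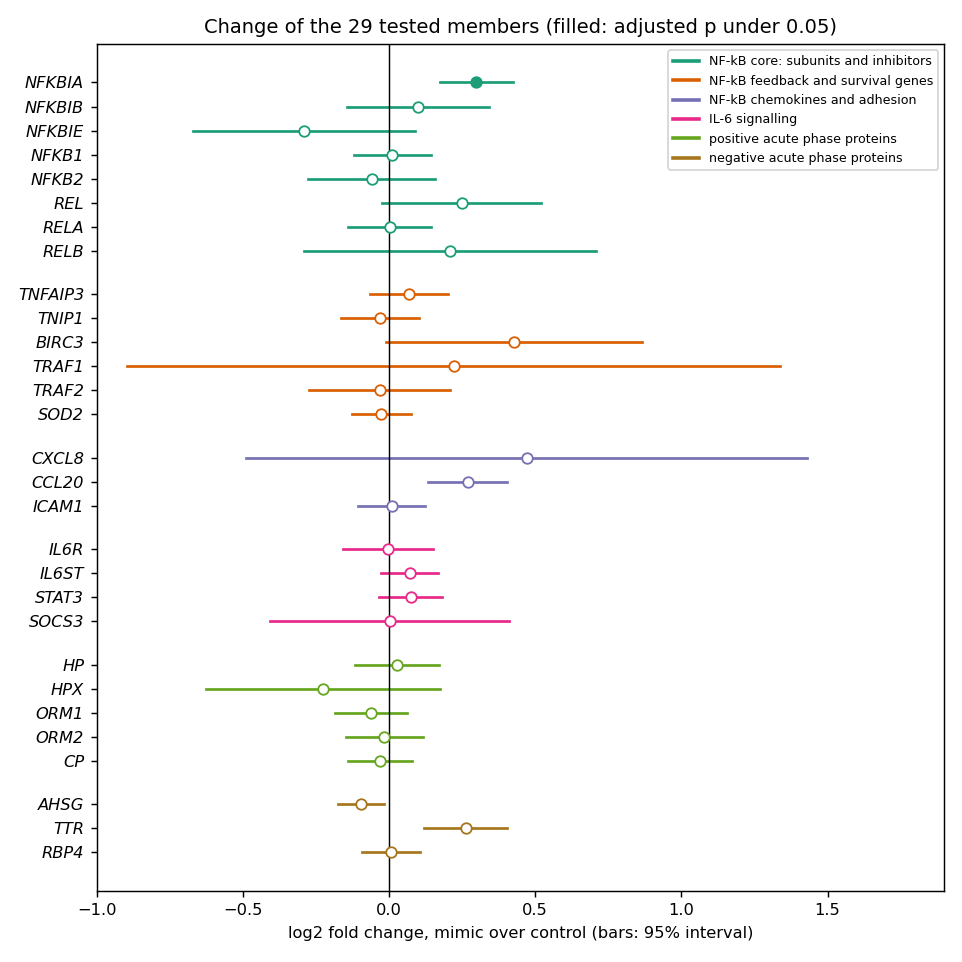
log2 fold change of the 29 tested members, mimic over control, with 95% intervals from edgeR's quasi-likelihood fit; colours mark roles and the filled point marks an adjusted p under 0.05. NFKBIA (0.30) is the 1 filled point, CCL20 (0.27) and TTR (0.26) lie beside it with intervals above 0, and the widest intervals belong to the sparsely counted TRAF1 and CXCL8.

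Among the subunits and inhibitors of NF-kB, the rise of NFKBIA stood beside levels of the other genes that did not pass the test. IkB-alpha binds NF-kB dimers and keeps them out of the nucleus, and its gene is a classical target of the factor it inhibits. NFKBIA (ENSG00000100906; chromosome 14, 35401513 to 35404749, GRCh38.p14) had 136 and 128 CPM in the 2 mimic libraries, against 111 and 104 CPM in the 2 control libraries. Both mimic libraries lay above both control libraries, with mimic library 1 highest and control library 2 lowest. The means were 132 ± 5.40 CPM in mimic cells and 107 ± 5.42 CPM in control cells (SD, n = 2 each). The 1.23-fold rise corresponded to a log2 fold change of 0.30 with a standard error of 0.06, and the 95% interval ran from 0.17 to 0.42 (Benjamini-Hochberg adjusted p = 0.0291, edgeR quasi-likelihood F test). No exon of the gene overlapped another annotated gene, and none of its 50-base stretches occurred in another gene's transcripts.

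The call of NFKBIA rested on the libraries at the ends of the first principal component. Without mimic library 1 its log2 fold change was 0.26 (Benjamini-Hochberg adjusted p = 0.24, edgeR quasi-likelihood F test), and without control library 2 it was 0.25 (adjusted p = 0.135 by the same edgeR test). It stayed above 0 in each of the 12 alternatives, from 0.25 to 0.35, and passed in 9 of them. The remaining one that it missed had no filter on low counts (Benjamini-Hochberg adjusted p = 0.754, edgeR quasi-likelihood F test). The order mimic library 1, mimic library 2, control library 1, control library 2 from high to low was found in 6 of the 7 members whose groups did not overlap and were higher with the mimic, NFKBIA among them. Across all genes tested it was found in 36.9% of the 2868 of that kind and in 32 of the 40 genes called higher. The part of that library order, or of the larger share of reads aligned to several places in control library 2, in the rise of NFKBIA was not tested.

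The other IkB genes gave lower and less certain values. NFKBIB, coding for IkB-beta, had 22.7 and 19.4 CPM in mimic cells and 20.0 and 19.1 CPM in control cells, with overlapping groups. NFKBIE, coding for IkB-epsilon, had 6.40 and 7.45 CPM in mimic cells, against 7.91 and 9.19 CPM in control cells. The mimic libraries of NFKBIE were the lower ones, with a log2 fold change of -0.29 and a 95% interval from -0.67 to 0.09, on 98 to 148 reads per library. It was thus on the other side of 0 from NFKBIA without passing the test.

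The subunits did not pass either. RELA, the p65 subunit with the transactivation domain of the common dimer, had 72.6 and 73.3 CPM in mimic cells and 75.5 and 70.2 CPM in control cells, and a log2 fold change of 0.00 with a 95% interval from -0.14 to 0.14. NFKB1, which encodes the p105 precursor of p50, was as even, at 92.3 and 87.5 CPM in mimic cells and 90.6 and 87.7 CPM in control cells (interval -0.12 to 0.14). NFKB2, the precursor of p52 in the non-canonical arm, gave -0.06 (interval -0.28 to 0.16). The groups overlapped in all 3 of these genes.

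REL and RELB, the c-Rel and RelB subunits, were higher in both mimic libraries without passing. REL had 20.7 and 16.5 CPM in mimic cells and 16.1 and 14.97 CPM in control cells, with mimic library 1 apart from the other 3 (log2 fold change 0.25, 95% interval -0.03 to 0.52). In GENCODE release 29, 43.3% of the REL exon sequence is shared with another gene on the same strand, so part of its reads may have been left out as ambiguous. RELB had 4.44 and 4.47 CPM in mimic cells, against 3.69 and 4.04 CPM in control cells, on 62 to 84 reads per library.

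**Figure D2:**
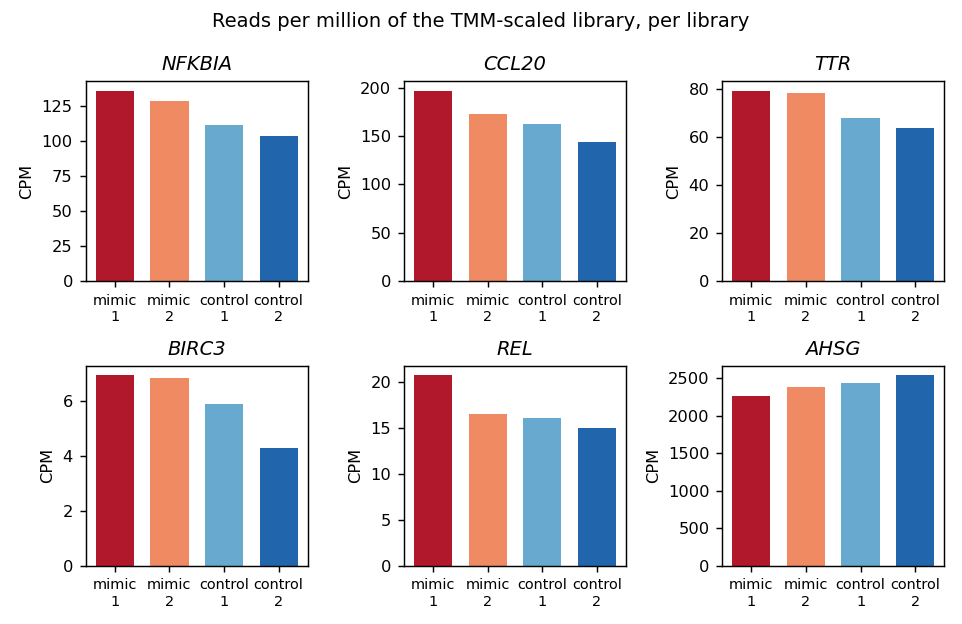
CPM in each of the 4 libraries, axes from 0, for NFKBIA, the 3 other members with an unadjusted p under 0.05 (CCL20, TTR and AHSG), BIRC3 and REL; red bars are mimic libraries and blue bars control libraries. In NFKBIA, CCL20, TTR, BIRC3 and REL the bars step down from mimic library 1 to control library 2, and in AHSG they step up in the same order.

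Of the feedback and survival genes under NF-kB, 6 were tested and 0 passed edgeR's quasi-likelihood test (0 also at an unadjusted p under 0.05). Among all genes tested 0.346% passed and 9.43% had such an unadjusted p. TNFAIP3, coding for A20, a ubiquitin-editing enzyme that shuts the pathway off and is itself an NF-kB target, had 110 and 109 CPM in mimic cells and 111 and 97.9 CPM in control cells. Of these 4 values, that of control library 2 was lowest, giving a log2 fold change of 0.07 with a 95% interval from -0.07 to 0.20. TNIP1, a partner of A20, gave -0.03 (interval -0.17 to 0.10), and SOD2, the mitochondrial manganese superoxide dismutase, -0.03 (interval -0.13 to 0.08) at 259 ± 4.56 CPM in mimic cells and 264 ± 9.48 CPM in control cells (SD, n = 2 each). SOD2 was thus abundant in both groups, and a change of its mRNA as large as that of NFKBIA lay outside its interval.

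BIRC3, which encodes the inhibitor of apoptosis cIAP2, had the smallest p of these genes. It had 6.92 and 6.81 CPM in mimic cells, against 5.89 and 4.28 CPM in control cells, where control library 2 was lowest. Its log2 fold change was 0.43, with SE 0.21 (Benjamini-Hochberg adjusted p = 0.544, edgeR quasi-likelihood F test), on 69 to 128 reads per library. Without control library 2 it was 0.22 and without control library 1 it was 0.68, so the size of this value depended on which control was used. The adaptor genes TRAF1 (8 to 16 reads per library) and TRAF2 (18.3 to 19.8 CPM) gave log2 fold changes of 0.22 and -0.03 with intervals across 0.

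The chemokines and the adhesion molecule fell into 2 kinds, detected and hardly detected. CCL20, the ligand of the receptor CCR6, had 197 and 173 CPM in mimic cells, against 163 and 143 CPM in control cells. Both mimic libraries were higher, and the step between the mimic libraries was larger than that between mimic library 2 and control library 1. CCL20 averaged 185 ± 17.2 CPM in mimic cells and 153 ± 13.7 CPM in control cells (SD, n = 2 each), with a log2 fold change of 0.27 (SE 0.07, 95% interval from 0.13 to 0.40). It did not pass over all genes (Benjamini-Hochberg adjusted p = 0.0791, edgeR quasi-likelihood F test).

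Which library was left out decided the side of the threshold for CCL20. It passed without mimic library 2 (log2 fold change 0.36, adjusted p = 0.000424) and without control library 1 (0.37, adjusted p = 5.15e-06) by the quasi-likelihood F test of edgeR after Benjamini-Hochberg adjustment. Without mimic library 1 it gave 0.17 (adjusted p = 0.703) and without control library 2 it gave 0.18 (adjusted p = 0.394, same edgeR test). The adjusted p over all 12 alternatives ranged from 5.15e-06 to 0.754, with 3 under the threshold. The direction stayed upward in all of them.

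ICAM1, the adhesion molecule that leukocytes bind, stood at 150 and 151 CPM in mimic cells and 154 and 144 CPM in control cells. Its mimic values fell inside the control range, with a log2 fold change of 0.01 and a 95% interval from -0.11 to 0.12. Antisense genes cover 23.6% of its exon sequence, and whether strand was used in counting is not given in the sources used here. CXCL8, the neutrophil chemoattractant interleukin 8, had only 25 and 21 reads with the mimic and 21 and 11 reads in the control. Its log2 fold change of 0.47 had an interval from -0.49 to 1.43, so a difference was not detectable at this depth.

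CXCL1 and CCL2, which attract neutrophils and monocytes, were at 0 reads in all 4 libraries. A count of 0 allows a level of up to 0.196 and 0.160 CPM (3 reads) in the mimic libraries and 0.178 and 0.186 CPM in control libraries, for counting error only. CXCL2 had 1 and 4 reads with the mimic and 0 and 1 in the control, and CXCL5 had 0 and 1 with the mimic and 1 and 0 in the control. The CXCL1, CXCL2, CXCL5 and CXCL8 genes lie in one cluster on chromosome 4, and of these CXCL8 alone reached the filter. CXCL2 shares 8.99% of its 50-base stretches with CXCL3, and the counts leave out reads with several alignments.

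**Figure D3:**
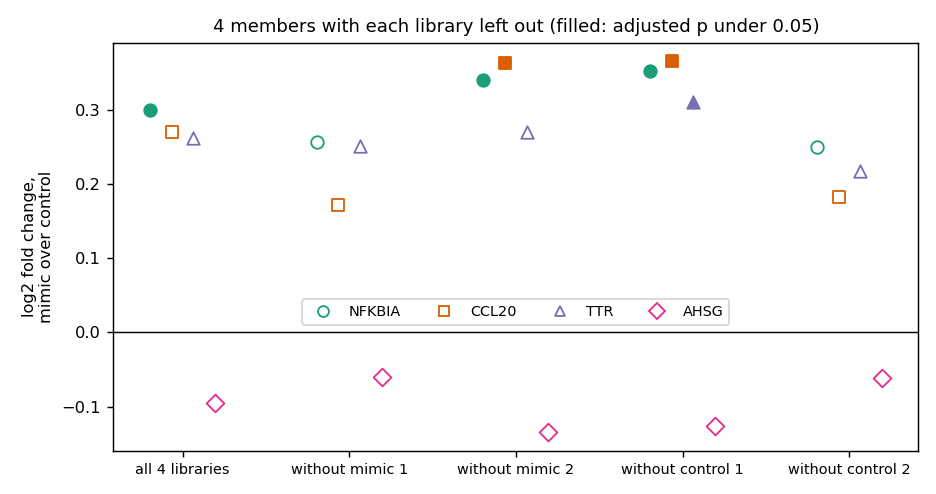
log2 fold change of NFKBIA, CCL20, TTR and AHSG, mimic over control, with all 4 libraries and with each library left out; filled points mark an adjusted p under 0.05 in edgeR's quasi-likelihood test. NFKBIA is filled with all libraries, without mimic library 2 and without control library 1, CCL20 in the last 2 of these, TTR only without control library 1 and AHSG in none of the 5 fits shown.

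All 4 genes of interleukin 6 signalling were tested and 0 passed edgeR's quasi-likelihood test (0 also at an unadjusted p under 0.05). Over all genes tested these shares were 0.346% and 9.43%. IL6R, the receptor's ligand-binding chain, had 54.4 and 54.3 CPM in mimic cells and 53.9 and 55.1 CPM in control cells. IL6ST, coding for the shared signal transducer gp130, had the smallest p of this group, with 404 and 380 CPM in mimic cells, against 374 and 372 CPM in control cells. The IL6ST values lay above the control in both mimic libraries by a log2 fold change of 0.07 (95% interval -0.03 to 0.17; Benjamini-Hochberg adjusted p = 0.684, edgeR quasi-likelihood F test). Without mimic library 1 the IL6ST value was 0.02 and without mimic library 2 it was 0.11. STAT3, the transcription factor that gp130 activates, gave 0.07 (interval -0.03 to 0.18). SOCS3, the STAT3 target that dampens the receptor, stood at 6.77 ± 1.14 CPM in mimic cells and 6.68 ± 0.139 CPM in control cells (SD, n = 2 each).

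The positive acute phase proteins either did not pass the test or were hardly detected. Of 12 such genes 5 were tested and 0 passed edgeR's quasi-likelihood test (0 also at an unadjusted p under 0.05), with a median log2 fold change of -0.03. Among all genes tested the shares were 0.346% and 9.43%, and the median was 0.00. CP, the copper carrier ceruloplasmin, had 427 and 477 CPM in mimic cells and 443 and 482 CPM in control cells, with groups that overlapped (interval -0.14 to 0.08). HP, the haemoglobin scavenger haptoglobin, had 82.2 and 86.6 CPM in mimic cells and 87.6 and 78.1 CPM in control cells (interval -0.12 to 0.17). The antisense gene HPS3 covers 19.4% of the CP exon sequence. Of the HP 50-base stretches 10.8% also occur in HPR, which had 118 to 186 reads per library. HPX, the haem-binding hemopexin, had the smallest p of the group and stood at 5.88 and 6.28 CPM in mimic cells, against 6.84 and 7.45 CPM in control cells. HPX was lower in both mimic libraries, by a log2 fold change of -0.23 with a 95% interval from -0.63 to 0.17.

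The paralogous genes of orosomucoid, the plasma alpha-1-acid glycoprotein, did not pass. ORM1 had 106 and 113 CPM in mimic cells and 115 and 114 CPM in control cells. ORM2 had 82.5 and 84.0 CPM in mimic cells and 84.7 and 83.9 CPM in control cells. Their log2 fold changes were -0.06 and -0.02. Of the ORM1 50-base stretches 42.0% also occur in ORM2, and 50.2% of those of ORM2 occur in ORM1, so the split of reads between them is uncertain.

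Serum amyloid A and C-reactive protein, the strongest inducible acute phase proteins of human liver, were hardly detected. SAA1 and CRP were at 0 reads in every library. SAA2 had 1 and 1 reads with the mimic and 4 and 0 in the control. SAA4, the constitutive member of that family, had 7 and 17 reads with the mimic and 10 and 4 in the control. Of the SAA1 50-base stretches 46.6% occur in SAA2, and 65.5% of the SAA4 exon sequence is shared with the read-through gene SAA2-SAA4, which itself had 0 reads in all 4 libraries. The lipopolysaccharide-binding protein LBP had 9 reads in all, of which 7 were in control library 1, the iron-chelator carrier LCN2 had 10, and the lipopolysaccharide co-receptor CD14 had 12, of which 7 were in mimic library 1. No difference between groups can be read from such counts.

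The negative acute phase proteins gave values in both directions. AHSG, the abundant plasma glycoprotein fetuin-A, had 2265 and 2387 CPM in mimic cells, against 2430 and 2539 CPM in control cells. Both mimic libraries were lower, with a log2 fold change of -0.10, a standard error of 0.04 and a 95% range from -0.17 to -0.02 (unadjusted p = 0.0205 and Benjamini-Hochberg adjusted p = 0.417, edgeR quasi-likelihood F test). Without mimic library 1 or control library 2 the log2 fold change of AHSG was -0.06. TTR, the thyroid hormone carrier transthyretin, had 79.5 and 78.5 CPM in mimic cells, against 68.0 and 63.7 CPM in control cells. Both mimic libraries of TTR were higher and nearly equal.

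TTR had a log2 fold change of 0.26 (SE 0.07, 95% interval from 0.12 to 0.40) and did not pass over all genes (Benjamini-Hochberg adjusted p = 0.119, edgeR quasi-likelihood F test). It passed without control library 1 (0.31, adjusted p = 0.0125, same edgeR test). RBP4, the retinol carrier that circulates bound to transthyretin, had 272 and 272 CPM in mimic cells and 268 and 273 CPM in control cells. The RBP4 interval of -0.09 to 0.10 excludes a log2 rise as large as that estimated for TTR.

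**Figure D4:**
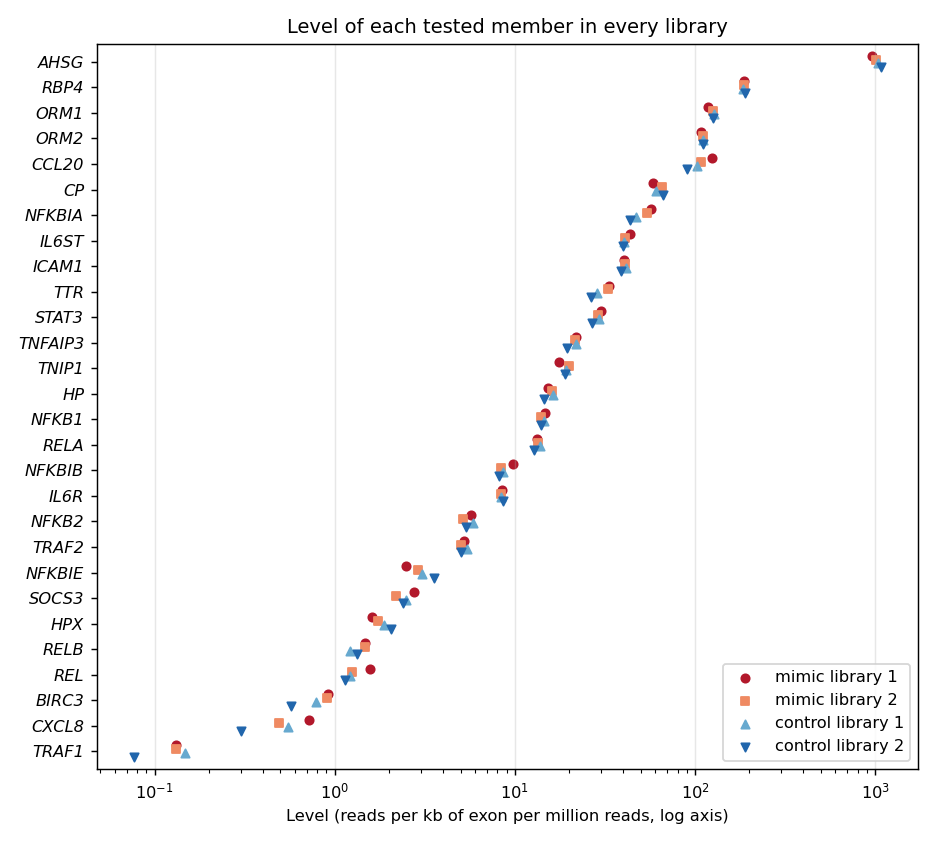
Level per length of the 28 tested members with a GENCODE release 29 length, in reads per kb of exon per 1000000 reads on a log axis, ordered by the mean of the 4 libraries; red marks are mimic and blue marks control libraries. Levels span from AHSG at about 1022 to TRAF1 at 0.122, while some neighbours in the order, such as ORM2 and CCL20 or TTR and STAT3, overlap between libraries.

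Per length of exon, the 6 highest members encode secreted proteins (AHSG, RBP4, ORM1, ORM2, CCL20 and CP), whereas others such as TTR, HP, HPX and CXCL8 stood lower. On the scale of reads per kb of GENCODE release 29 exon per 1000000 reads (RPKM), AHSG averaged 989 with the mimic and 1056 in the control. RBP4 averaged 188 with the mimic and 187 in the control, and ORM1 122 with the mimic and 127 in the control. CCL20 followed with 116 RPKM with the mimic and 96.0 in the control, and its range over the libraries overlapped that of ORM2. NFKBIA came seventh of 28, at 55.7 RPKM with the mimic and 45.2 in the control. It stood above all the NF-kB subunits, of which NFKB1 (14.4 RPKM with the mimic and 14.2 in the control) and RELA (13.3 in both groups) were the highest. Of the 27 neighbouring pairs in this order, 17 had ranges over the 4 libraries that did not overlap. For the other 10 the order is not fixed by these libraries. The lengths join all annotated exons of a gene, such as 5405 bases for HP and 2395 for TTR. A shorter transcript in these cells would give a higher level per length. Reads shared between genes, as in ORM1 and ORM2, may also be missing. Ranges that do not overlap therefore bear on the spread between libraries only, not on these limits. SOD2 has no length in that annotation under its ID and is left out of the order.

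For most tested members the intervals bounded a change between these libraries, resting on a spread that may be technical only. The 95% interval of the log2 fold change lay within a 1.25-fold change in either direction for 17 of the 29 tested members (58.62%), and within a 1.5-fold change for 23 (79.31%). Among all 14464 genes tested these shares were 43.29% and 66.97%. Whether the members differ in this from other genes of similar read depth was not tested. The 6 tested members with intervals beyond 1.5-fold were NFKBIE, RELB, BIRC3, TRAF1, CXCL8 and HPX, the least counted of the tested members apart from SOCS3. RELA, NFKB1, TNFAIP3, SOD2, ICAM1, STAT3, IL6ST, CP, HP and RBP4 were among the 17.

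The other genes of these pathways, taken from lists of receptors, kinases, targets and plasma proteins, held 3 called genes. Over all genes tested 0.346% were called. The lists were drawn up with earlier results of these data known, so this count is no finding about the pathways. Of 36 tested genes from receptors to the IkB kinase complex, 0 passed edgeR's quasi-likelihood test, 5 had an unadjusted p under 0.05 and all 5 were higher, where 5.06% of all genes were higher at that level. The median log2 fold change was 0.02. The smallest p was that of IL1R1, the signalling receptor of interleukin 1, with 235 and 233 CPM in mimic cells, against 202 and 208 CPM in control cells. Its log2 fold change was 0.19 (95% interval 0.09 to 0.30; Benjamini-Hochberg adjusted p = 0.119, edgeR quasi-likelihood F test).

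Of 42 other NF-kB targets 26 were tested and 0 passed edgeR's quasi-likelihood test. At an unadjusted p under 0.05, 5 were higher and 1 lower, and the median was 0.06. Over all genes tested 5.06% were higher and 4.37% lower at that level, with a median of 0.00. The smallest p belonged to CX3CL1, the membrane-bound chemokine fractalkine, at 173 ± 6.92 CPM in mimic cells and 151 ± 8.05 CPM in control cells (SD, n = 2 each; log2 fold change 0.20). CX3CL1 passed without control library 1 (0.25, Benjamini-Hochberg adjusted p = 0.00688, edgeR quasi-likelihood F test). Of the cytokines that can start these responses, IL6 had 0 reads in all 4 libraries, TNF 1 read and IL1B 14 reads in all. Others were detected, among them LIF, a ligand of the gp130 receptors, with 19.1 and 18.5 CPM in mimic cells and 20.9 and 22.3 CPM in control cells, and IL11 with 16.1 and 13.1 CPM in mimic cells and 13.4 and 11.8 CPM in control cells. LIF and IL11 did not pass the test and were named after their values were seen. DESeq2 gave an adjusted p to only 11 of the receptor and kinase genes and 10 of the other NF-kB targets, and called 0 of them. Limma voom gave one to 36 and 26 genes of these lists and also called 0.

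Of 27 tested genes of the interleukin 6 family and STAT3 signalling, 1 rose and 26 did not pass (median 0.05). At an unadjusted p under 0.05 in the edgeR test there were 6, all higher, where 5.06% of all genes tested were higher at that level. BCL6, a transcriptional repressor and STAT target, had 171 and 149 CPM in mimic cells, against 136 and 113 CPM in control cells. BCL6 thus had a log2 fold change of 0.36, with SE 0.07 (Benjamini-Hochberg adjusted p = 0.0291, edgeR quasi-likelihood F test). The call was lost without mimic library 1 (0.26, adjusted p = 0.169) and without control library 2 (0.24, adjusted p = 0.139, same edgeR test).

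Outside the 40 genes, 22 positive and 10 negative acute phase proteins were tested. At an unadjusted p under 0.05 in the edgeR test there were 4 positive ones and 1 negative one, all higher. Over all genes tested 5.06% were higher at that level and 0.277% were called higher. After adjustment 1 of the positive ones rose and 21 did not pass (median 0.03). Of the negative ones 1 rose and 9 did not pass (median 0.03). The positive one was A2M, the protease inhibitor alpha-2-macroglobulin, whose acute phase role is best known from the rat. It had 5223 and 5018 CPM in mimic cells, against 4455 and 3900 CPM in control cells (log2 fold change 0.29, SE 0.04; Benjamini-Hochberg adjusted p = 0.00195, edgeR quasi-likelihood F test). The negative one was albumin, ALB, with 10192 and 9760 CPM in mimic cells, against 9033 and 7991 CPM in control cells (log2 fold change 0.23; adjusted p = 0.0109 by the same edgeR test, Benjamini-Hochberg). An antisense gene covers 8.79% of the A2M exon sequence and antisense genes cover 8.24% of that of BCL6. Without control library 2 the log2 fold change of ALB was 0.14 (Benjamini-Hochberg adjusted p = 0.044, edgeR quasi-likelihood F test). Neither A2M nor ALB passed in DESeq2 (Benjamini-Hochberg adjusted p = 0.132 and 0.342, Wald test). In edgeR A2M and ALB thus both rose, A2M being on the positive and ALB on the negative list used here.

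**Figure D5:**
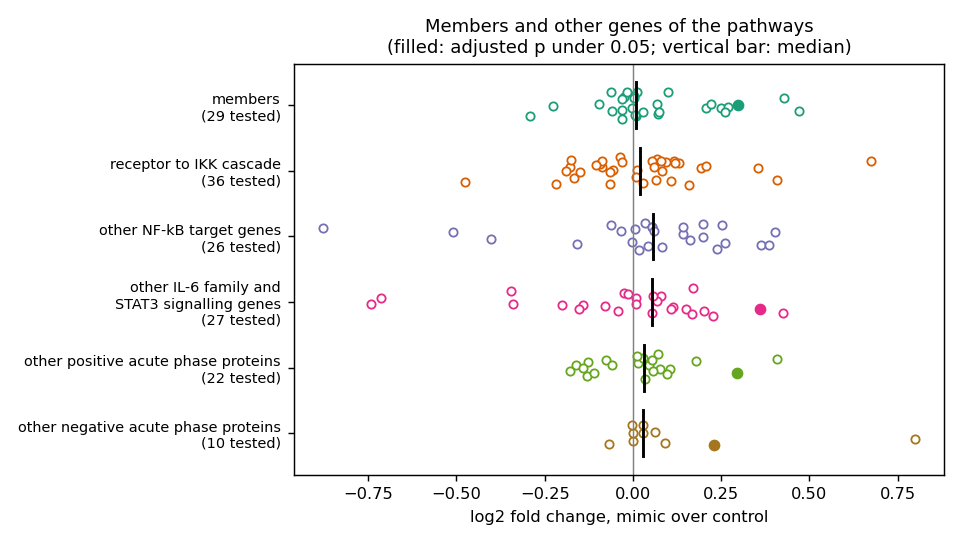
log2 fold change, mimic over control, of the 29 tested members and of the tested genes of 5 lists of other pathway genes; filled points have an adjusted p under 0.05 and black bars are medians. The medians lie between 0.01 and 0.06, and the 4 filled points are NFKBIA, BCL6, A2M and ALB, all above 0.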

How the data were processed

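Poly(A)-selected RNA of 4 Hep G2 samples was sequenced, per the labels' protocols with an RNA integrity number above 9.5 and a stranded kit. The authors deposited raw read counts for each Ensembl gene, made with FastQC, Bowtie2, STAR and HTSeq on GRCh38.p14, per the submitters' processing notes; versions, annotation release and strand setting: not given in the sources used here. The 5 HTSeq summary entries (23.1% to 24.1% of reads) entered neither library sizes nor tests. Columns marked NC were taken as control and the others as mimic, by elimination; if that were wrong, directions would turn. Library numbers are those of the columns.

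The main test was that of edgeR 4.0.16 under R 4.3.3 (filterByExpr, minimum count 10 and minimum total 15; TMM; glmQLFit with legacy = FALSE; Benjamini-Hochberg over 14464 genes; threshold 0.05). Standard errors were the log2 fold change over the root of F. Alternatives were RLE factors, library totals, no filter, a filter at 10 CPM, DESeq2 1.42.0, limma 3.58.1 voom, legacy = TRUE, a block and each library left out. The edgeR step was checked on simulated data. Coordinates and promoters are from RefSeq, matched by symbol, and exon lengths, overlaps and shared 50-base stretches from GENCODE release 29, older than the table's annotation. The members were given as a list, while their role groups and the lists of other genes were drawn up with earlier results of these data known. Genes named were members with an unadjusted p under 0.05 or the smallest p of their role, and of other lists the called genes and that with the smallest p; the remaining members are given for completeness.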

Additional observations from a re-analysis of the deposited data

How the results depend on the processing

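Of the 40 genes described, the number called was 1 (NFKBIA) in the fit above and also with RLE factors, library totals, a filter at 10 CPM, DESeq2, limma voom and legacy = TRUE. Without a low-count filter edgeR called 0 of them and 0 of all genes (4 and 1514 at an unadjusted p under 0.05), where 30342 genes were tested. With the main filter limma voom called 50 genes, and DESeq2, adjusting over 3282 genes by its own filtering, called 37. With each library left out in turn, 0 to 3 members and 20 to 424 genes were called, against 50 genes with all 4; the group left with 1 library is then assumed to vary like the other group. Members were lost without mimic library 1 and control library 2 (0 called in edgeR, 3 at an unadjusted p under 0.05 in each) and gained without mimic library 2 (2) and control library 1 (3); the cause was not tested. The titles number the samples 1 to 4, so nothing in the labels pairs them. A block by the number in the column names called 3 members (NFKBIA, CCL20 and TTR) and 306 genes; same-numbered libraries deviated from their group means with a correlation of 0.04 over all genes tested and 0.125 over the 8868 with a mean of at least 10 CPM. With 2 pairs this does not settle whether the numbers pair libraries, so the block was not used. It also called CX3CL1 and IL1R1, which did not pass without it. No result named in the text turned its direction with a call on either side. Of the members that did not pass, library totals in place of TMM turned the sign of 5 (NFKB1, RELA, ICAM1, SOCS3 and RBP4), and leaving out control library 2 turned that of 10. Depth limits TRAF1, CXCL8 and the 11 members that were not tested.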
